A study of Oryza sativa with 8 samples.

Results

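In root tips of dark-grown rice seedlings, 100 genes were picked for a difference with calcium supply that had the same direction without and with ethylene gas, while their level over the ethylene libraries stayed close to that over the air libraries. They were selected on the measured values themselves: a mean of at least 10 CPM (counts scaled to the same total in every library) over the 8 libraries, means of the 4 ethylene and the 4 air libraries of which the lower was at least 0.8 times the higher, and ratios of calcium to control and of calcium and ethylene to ethylene that were both above 1 or both below 1. Of 57359 gene IDs, 14274 reached the level, 5251 of those also met the ethylene criterion, and 3395 of those had both calcium ratios on 1 side. The 100 with the largest value of the smaller of the 2 absolute log2 ratios are the members, 87 lower and 13 higher with calcium, whereas 1955 of the 3395 genes with ratios of 1 direction were higher. Because these ratios chose the members, the calcium differences below are a description and carry no test.

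Calcium ions act in plant cells as a second messenger, read by calmodulins and calcium-dependent kinases, and they also cross-link pectin in the cell wall. Ethylene is a gaseous hormone perceived by receptors in the endoplasmic reticulum membrane, and in rice roots it restrains elongation. The title of the series ties rice ethylene receptors to the passage of calcium and other cations, so genes that differ with calcium supply whether or not ethylene is given form 1 class that the design can describe. The deposited table holds gene IDs with no names, and none of them matched a rice gene table, so no member can be given a function and only 4 IDs are named.

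All seedlings were of the variety Dongjin, germinated for 2 days at 37 °C and kept for 3 days at 28 °C in darkness in closed boxes. The 4 groups were control and calcium, both without ethylene, and ethylene and calcium and ethylene, both with 2 ppm ethylene, and each had 2 libraries of poly(A) RNA. The labels mention different calcium chloride concentrations without values, and the series contrasts low with normal calcium without saying which group is which. Thus "higher with calcium" here means only higher in the group so labelled. Libraries with and without calcium are likewise named by their labels, not by a known supply. Library totals ran from 19099091 to 25907083 counts, so 10 CPM corresponded to 191 to 259 counts. The labels do not state whether replicate libraries were made from different plants. In bulk root tips, fewer cells of a type and less RNA per cell cannot be told apart.

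Most members differed by less than 2-fold. Among the 87 lower members the log2 ratio of calcium to control ran from -4.73 to -0.48, with a median of -0.63. With ethylene the ratio ran from -2.32 to -0.48, with a median of -0.82. The 13 higher members had medians of 0.64 (0.49 to 1.08) and 0.58 (0.49 to 1.14). Both ratios passed 2-fold in 8 members and 4-fold in 2 members, and all of these were lower with calcium. At the edge of the choice the last member had a smaller absolute ratio of 0.484 on the log2 scale and the next gene 0.483, so the boundary falls in a continuum. Over all 5251 genes that met the level and ethylene criteria the median log2 ratios were -0.0046 and 0.070.

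**Figure D1:**
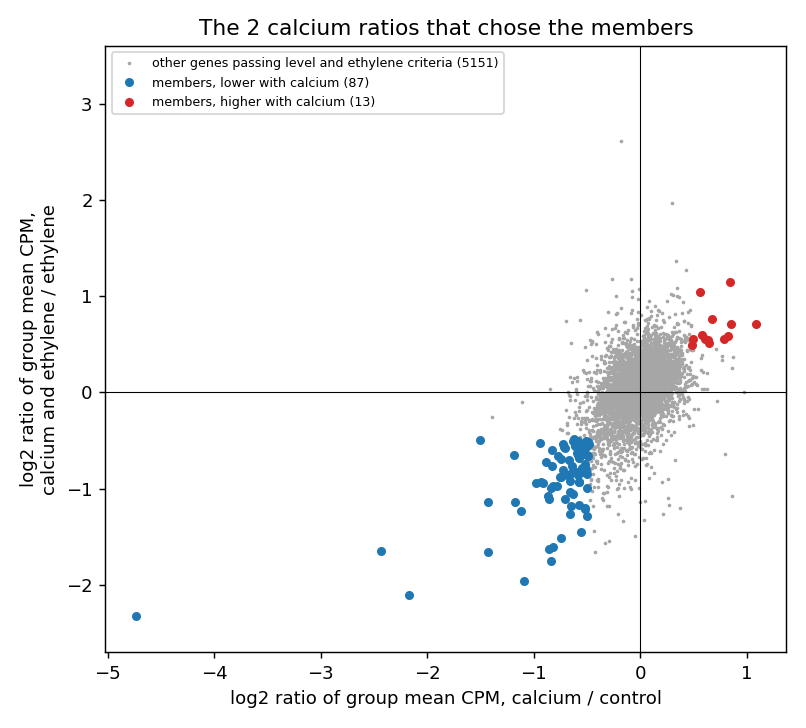
Log2 ratio of group mean CPM for calcium over control (x axis) and for calcium and ethylene over ethylene (y axis), 1 point per gene that met the level and ethylene criteria, with the 87 lower members in blue and the 13 higher members in red. The members lie beyond 0.48 on both axes, 1 blue point stands far from the rest at -4.73, and the red points stay below 1.2 on both axes.

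The first-ranked member had 87.8 and 2.04 CPM in control replicates 1 and 2, 1.16 and 2.23 in calcium replicates 1 and 2, 59.6 and 9.77 in ethylene replicates 3 and 4, and 10.2 and 3.67 in calcium and ethylene replicates 2 and 3. Its high group means thus came from 1 library each, control replicate 1 and ethylene replicate 3, and in both pairs of groups the libraries overlapped. The second-ranked member repeated this shape, with 47.3 and 5.67 CPM in control, 9.01 and 2.77 in calcium, 51.0 and 5.29 in ethylene and 6.56 in each calcium and ethylene library. In all 6 of the 6 first-ranked members control replicate 1 and ethylene replicate 3 were the 2 highest of the 8 libraries. The run ended there, as the member ranked 7 was highest in ethylene replicate 4, at 49.2 CPM. This pair led in 24 of the 87 lower members and in 1.98% of the 5251 genes. High control and ethylene libraries in lower members follow from the choice.

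The named members are the first 2 lower and the first 2 higher ones whose libraries did not overlap in either pair of groups. AGIS_Os06g035130, ranked 3, had 37.2 and 5.39 CPM in control, 4.24 and 3.65 in calcium, 26.4 and 9.92 in ethylene and 5.80 and 5.78 in calcium and ethylene. Its 4 libraries labelled with calcium were close to each other, while control replicate 1 and ethylene replicate 3 again stood high. The group means were 21.3 ± 22.5 CPM in control and 3.95 ± 0.415 in calcium (SD, n = 2), a 5.39-fold difference, and 18.2 ± 11.6 in ethylene and 5.79 ± 0.0149 in calcium and ethylene, a 3.13-fold difference. The fitted log2 difference with calcium, averaged over air and ethylene, was -2.08 (SE 0.61), and it was -1.07 without control replicate 1.

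AGIS_Os06g034840, ranked 4, had 116.1 and 32.0 CPM in control, 30.7 and 24.3 in calcium, 130.1 and 51.5 in ethylene and 35.0 and 22.5 in calcium and ethylene. The same 2 libraries were high, and control replicate 2 lay only just above calcium replicate 1. The means were 74.0 ± 59.5 CPM in control against 27.5 ± 4.51 in calcium (SD, n = 2), 2.69-fold lower with calcium, and 90.8 ± 55.6 in ethylene against 28.7 ± 8.84 in calcium and ethylene, 3.16-fold lower. The averaged fitted log2 difference was -1.59 (SE 0.47) and was -0.97 without control replicate 1.

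AGIS_Os07g005860, ranked 15, led the higher members, with 11.9 and 7.76 CPM in control, 15.8 and 19.6 in calcium, 13.3 and 3.86 in ethylene and 18.9 and 19.0 in calcium and ethylene. All 4 libraries with calcium lay above the 4 without, and the lowest was ethylene replicate 4. The means were 9.85 ± 2.96 and 17.7 ± 2.70 CPM without ethylene (SD, n = 2), 1.79-fold higher with calcium, and 8.58 ± 6.67 and 19.0 ± 0.0471 with ethylene, 2.21-fold higher. The averaged fitted log2 difference was 0.96 (SE 0.35). Leaving out ethylene replicate 3 gave 1.51, and leaving out ethylene replicate 4 gave 0.65.

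AGIS_Os05g033660, ranked 27, had 18.8 and 8.13 CPM in control, 19.1 and 29.6 in calcium, 17.9 and 9.61 in ethylene and 23.3 and 21.8 in calcium and ethylene. Control replicate 1 and calcium replicate 1 were nearly level, so the gap without ethylene was set by the other 2 libraries. Its means were 13.5 ± 7.55 CPM in control and 24.3 ± 7.38 in calcium (SD, n = 2), and 13.7 ± 5.83 in ethylene and 22.6 ± 1.01 in calcium and ethylene. The averaged fitted log2 difference was 0.75 (SE 0.31). It was 1.12 without control replicate 1 and 0.50 without control replicate 2.

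**Figure D2:**
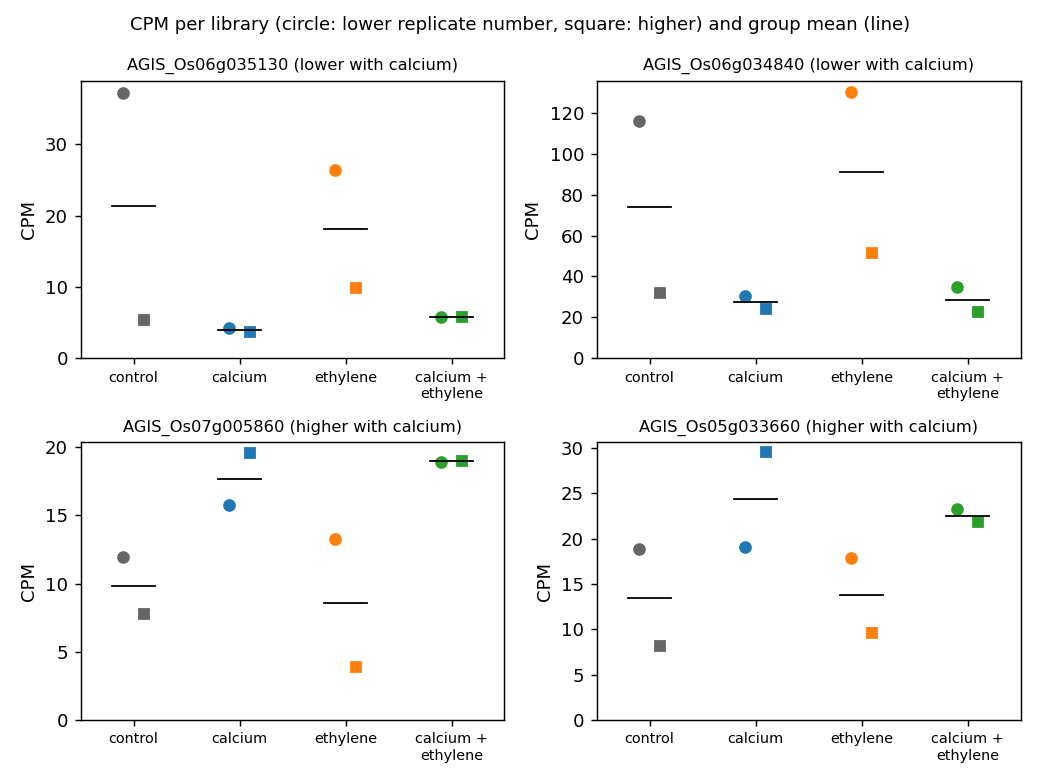
CPM in each library (points; circles have the lower and squares the higher replicate number of a group) and group means (lines) of the 4 named members, with the groups on the x axis. In both lower members 1 control and 1 ethylene library stand above the rest, and in both higher members the 4 libraries with calcium lie above the 4 without.

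Other members show the range of levels. The member with the highest mean, ranked 91, had 2474 and 1454 CPM in control, 1956 and 828 in calcium, 2280 and 2231 in ethylene and 1304 and 1761 in calcium and ethylene. Its control and calcium libraries overlapped, and its ethylene libraries lay above both calcium and ethylene libraries. Members of low level were more frequent, with a median of 32.2 CPM and a lowest mean of 10.2 CPM, close to the 34.1 CPM that was the median of the 5251 genes.

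Just 1 pair of members had consecutive IDs in the table, ranks 13 and 14. The first of the pair had 35.5 and 65.4 CPM in control, 37.3 and 18.3 in calcium, 63.7 and 76.2 in ethylene and 28.9 and 16.5 in calcium and ethylene. The second had 33.4 and 54.2, then 29.7 and 18.6, then 49.4 and 33.4, and then 26.6 and 11.7 CPM in the same order of libraries. Both were higher in control replicate 2 than in replicate 1, unlike the first-ranked members, and both were lowest in calcium and ethylene replicate 3. Whether they share reads cannot be told from gene counts. The members were spread over all 12 chromosome numbers that the IDs carry, with 3 to 15 members in each.

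Replicate libraries of a group differed more in members than in the 5251 genes. The median fold between the 2 libraries was 1.45 in control, 1.57 in calcium, 1.42 in ethylene and 1.18 in calcium and ethylene for the members, against 1.12, 1.15, 1.15 and 1.17 for the 5251 genes. At least 1 group had libraries 2-fold or more apart in 57 of the 100 members and in 296 (5.64%) of the 5251 genes. Choosing large ratios of means from 2 libraries favours genes that vary between them, so this contrast is not a property found independently of the choice.

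The library profile of the lower members did not divide evenly by group. Relative to each gene's mean over the 8 libraries, the 87 lower members had median log2 values of 0.39 and 0.099 in control replicates 1 and 2, -0.16 and -0.76 in calcium replicates 1 and 2, 0.22 and 0.51 in ethylene replicates 3 and 4 and -0.46 and -0.44 in calcium and ethylene replicates 2 and 3. Calcium replicate 2 was lowest of all 8 in 51 of the 87, and ethylene replicate 4 or control replicate 1 was highest in 43 and 28. The 13 higher members were near a mirror image, with -0.20 and -0.48 in control, 0.083 and 0.50 in calcium, -0.21 and -0.71 in ethylene and 0.33 and 0.23 in calcium and ethylene. Ethylene replicate 4 was the lowest in 8 of these 13 and calcium replicate 2 the highest in 7. Over the 5251 genes the library medians stayed between -0.060 and 0.058. Calcium replicate 2 and ethylene replicate 4 were also often extreme there, lowest in 19.6% and 27.4% of genes and highest in 15.5% and 16.8%. The library most often highest there was calcium and ethylene replicate 2, in 24.6%.

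The 2 libraries that stood highest divided the lower members into 3 sets of like size. Control replicate 1 with ethylene replicate 3 led in 24 of the 87, control replicate 1 with ethylene replicate 4 in 27, and control replicate 2 with ethylene replicate 4 in 27. Control replicate 2 with ethylene replicate 3 led in only 2, and 2 libraries of 1 group led in 5, of which 1 was the control pair and 4 the ethylene pair. Over the 5251 genes the same 3 pairs led in 1.98%, 3.87% and 5.20%. High control and ethylene libraries in the lower members follow from the choice, so nothing is read from the higher shares.

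**Figure D3:**
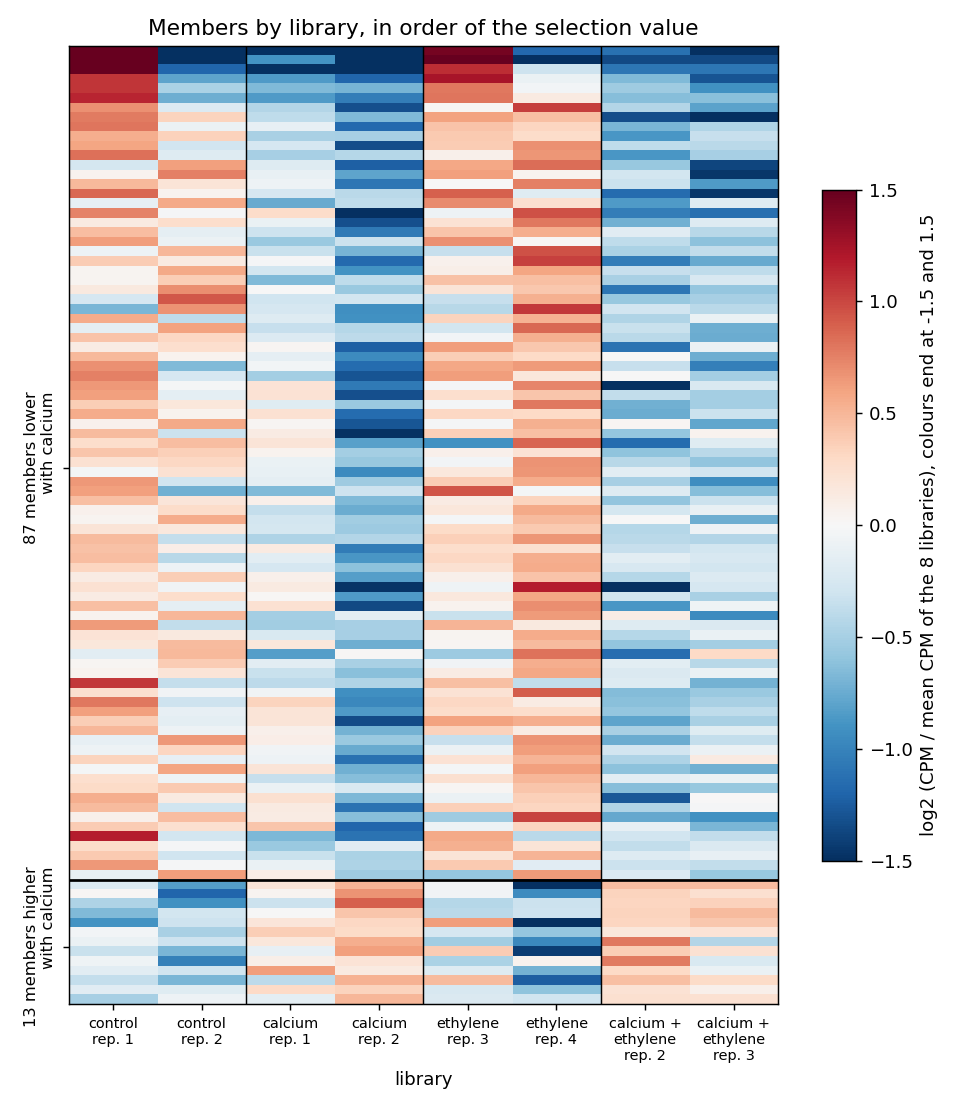
Level of each of the 100 members (rows, in order of the selection value within the lower and higher members) in each library (columns), as log2 of CPM over the gene's mean of the 8 libraries, red for higher and blue for lower. The first rows are red in control replicate 1 and ethylene replicate 3, and most lower members are darkest blue in calcium replicate 2 and paler in calcium replicate 1.

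Without ethylene, both calcium libraries lay on 1 side of both control libraries in 65 of the 100 members, against 32.1% of the 5251 genes in either direction. With ethylene, both calcium and ethylene libraries lay on 1 side of both ethylene libraries in 84 members, against 41.1%. Separation in both pairs and in 1 direction was seen in 56 members, against 11.4%, and in 46 members all 4 libraries with calcium lay apart from all 4 without, against 5.01%. The ratios that chose the members come from the same libraries, so nothing is read from these shares. Among the lower members, calcium replicate 1 lay below both control libraries in 56 of 87 and calcium replicate 2 in 84 of 87. With ethylene the pair was more alike, with replicate 2 of calcium and ethylene below both ethylene libraries in 78 and replicate 3 in 80. Among the 13 higher members, calcium replicates 1 and 2 lay above both control libraries in 11 and 13, and calcium and ethylene replicates 2 and 3 above both ethylene libraries in 10 and 9.

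A fit across all genes placed these differences against the spread of the libraries. With edgeR's quasi-likelihood test and Benjamini-Hochberg adjustment over 27008 genes, 0 of the 100 members were called at an adjusted p under 0.05 for calcium averaged over air and ethylene, where 0% of all genes were called. The counts for calcium against control, for calcium and ethylene against ethylene and for the interaction were likewise 0 of 100 members and 0% of genes. In the averaged comparison 2679 genes, 80 of them members, had an unadjusted p under 0.05. In the separate comparisons it was reached by 1037 and 2076 genes, of which 31 and 54 were members, and in the interaction by 644 genes and 1 member. DESeq2 called 30 members in the averaged comparison, where 1.45% of genes with an adjusted p were called, and edgeR without its filter on low counts called 24, where 0.778% were called. In the separate comparisons DESeq2 called 0 members without ethylene, where it called 0.0222% of genes, 7 with ethylene, where it called 0.915%, and 0 in the interaction, where it called 0.00370%. Without the filter edgeR called 5 members in the comparison with ethylene, where 0.326% of genes were called. The choice used this contrast, so these counts support nothing about the members.

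The fitted differences carry an error. Their median log2 difference with calcium averaged over air and ethylene was -0.78 in the lower members and 0.64 in the higher ones, against -0.0026 over all genes tested. Its median SE was 0.27 in the members and 0.15 in the 5251 genes. The lower members had medians of -0.63 without and -0.89 with ethylene, and the higher ones 0.64 and 0.52.

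Ethylene constancy held on average but not always within each calcium supply. The ratio of ethylene to air libraries ran from 0.802 to 1.24 in the members by choice, with a median of 1.02. Within single calcium supplies, 61 of the 100 members had both pairs of means, ethylene with control and calcium and ethylene with calcium, within that factor of 0.8, and 3545 (67.5%) of the 5251 genes did. The log2 ratio of ethylene to control ran from -0.53 to 0.59. The log2 ratio of calcium and ethylene to calcium ran from -0.97 to 2.03, so the name "unchanged" describes the pooled ratio only. The value of 2.03 belonged to the first-ranked member, which was at 1.16 and 2.23 CPM in calcium. For ethylene averaged over the calcium supplies edgeR called 0 of the 100 members and 39.0% of all genes, and the criterion on the ethylene ratio had removed genes with large ethylene differences beforehand. Without adjustment, 13107 genes and 2 members had a p under 0.05, and DESeq2 called 0 members and 41.9% of genes. Members were called for ethylene by edgeR in some other fits, 0 to 5 with 1 library left out. The 5 came without control replicate 1, where 31.2% of all genes were called and 17 members had an unadjusted p under 0.05. With the replicate number as a block 2 members and 7.18% of genes were called. Only replicate number 2 occurred both without and with ethylene, so this block overlaps with the ethylene comparison.

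The members' ratios were computed again with each library left out. Both ratios kept their direction in 92 to 100 of the 100 members. The choice asked for both ratios in 1 direction in these same libraries, so kept directions largely follow from it. The smaller ratio stayed at or past the limit that the last member set in 39 members without calcium replicate 2 and in 57 without control replicate 1. It did so in 64 when ethylene replicate 4 was left out and in 74 when control replicate 2 was. It stayed past in 80 and 89 without calcium and ethylene replicates 2 and 3, in 91 without ethylene replicate 3 and in 95 without calcium replicate 1. The median of the smaller absolute log2 ratio was 0.43 without calcium replicate 2 and 0.71 without calcium replicate 1, so of the 8 libraries these 2 moved it most, in opposite directions.

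**Figure D4:**
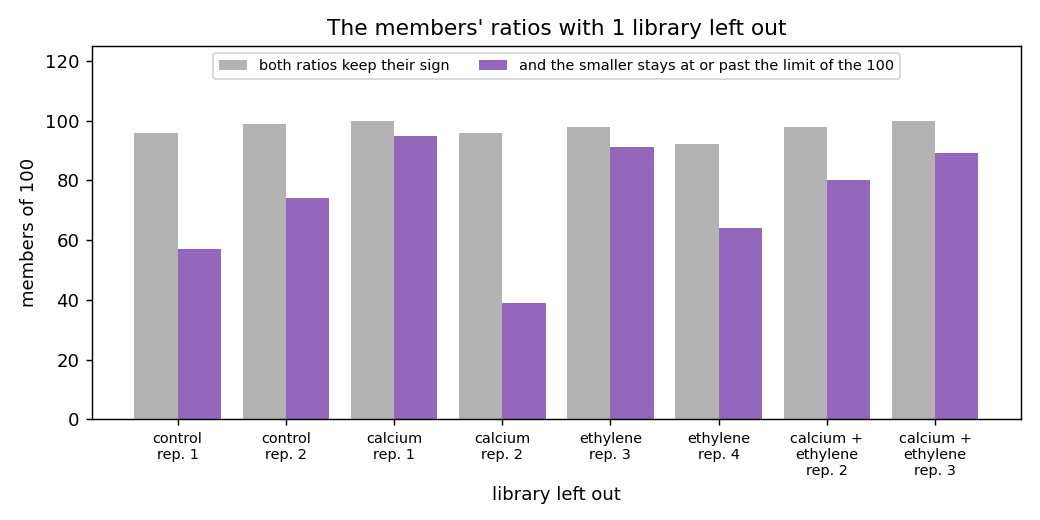
Number of the 100 members (y axis) whose 2 calcium ratios keep their direction (grey) and whose smaller ratio also stays at or past the limit of the 100 (purple) when the library on the x axis is left out. The grey bars stay at 92 or more, and the purple bars fall to 39 without calcium replicate 2 and to 57 without control replicate 1.

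The calcium ratios without and with ethylene come from different libraries, which allows 1 to be looked at where the other made the choice. Among the 5251 genes, the 100 with the largest absolute log2 ratio of calcium to control included 79 lower and 21 higher genes, and 60 of them were members. In calcium and ethylene against ethylene, 86 of these 100 had the same direction, 68 of the 79 lower and 18 of the 21 higher, against 64.7% of all 5251 genes. Their median log2 ratio, signed by the direction of the choice, was 0.72 in the pair that chose them and 0.55 in the other pair. In reverse, the 100 with the largest ratio of calcium and ethylene to ethylene had the same direction without ethylene in 83, 70 of 78 lower and 13 of 22 higher, with a median of 1.08 in the pair that chose them and 0.36 in the other. Of these, 36 were members. Without calcium replicate 2 the same counts were 71 and 65 of 100, against 56.6% of all genes then meeting the criteria, and the signed medians in the other pair were 0.29 and 0.16. Without control replicate 1 they were 76 and 75, against 61.7%, with medians of 0.28 and 0.27. Without calcium replicate 1 the counts were higher, 95 and 90, against 65.1%, with medians of 0.73 and 0.82. Over the other 5 libraries left out in turn they were 81 to 90 and 80 to 90, against 60.7% to 64.0%. These shares of all genes join both directions. With all libraries, 60.8% of the 5251 genes had a ratio above 1 with ethylene and 49.1% without. The 18 of 21 higher genes thus stand beside 60.8%, and the 13 of 22 in reverse beside 49.1%. The level and ethylene criteria use all libraries, so the lists of 100 are not wholly independent of the pair they were looked at in, and no test was made.

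Gene length was not part of the choice. The members had a median length of 1426 bases, as given in the deposited table, against 2059 bases for the 5251 genes. The lower members had a median of 1331 bases and the higher ones 1858 bases. Genes under 1000 bases made up 27 of the 100 members and 7.54% of the 5251 genes. When the 5251 genes were divided into 5 bins of like number by length, the shortest, from 156 to 1383 bases, held 45 lower and 2 higher members, and the bin from 2345 to 3139 bases held 4 and 3.

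Length also moved with the calcium ratios over all genes that met the criteria. From the shortest to the longest bin, the median log2 ratio of calcium to control went from -0.069 to 0.039. With ethylene it went from -0.046 to 0.20. By library, the widest ranges were in calcium and ethylene replicate 2, from -0.11 to 0.23 relative to each gene's mean, and in ethylene replicate 4, from 0.042 to -0.16. The other 6 libraries had medians of -0.066 to 0.047 in the shortest and longest bins. The part of this trend in the members' differences was not tested. Each ratio was also centred within the bins of length, an alternative added after the data had been seen. Then 83 of the 100 were chosen again, and 15 of the new 100 were higher with calcium. All bin medians were smaller than the log2 limit of 0.484 that the last member set, so a large overlap was likely beforehand.

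**Figure D5:**
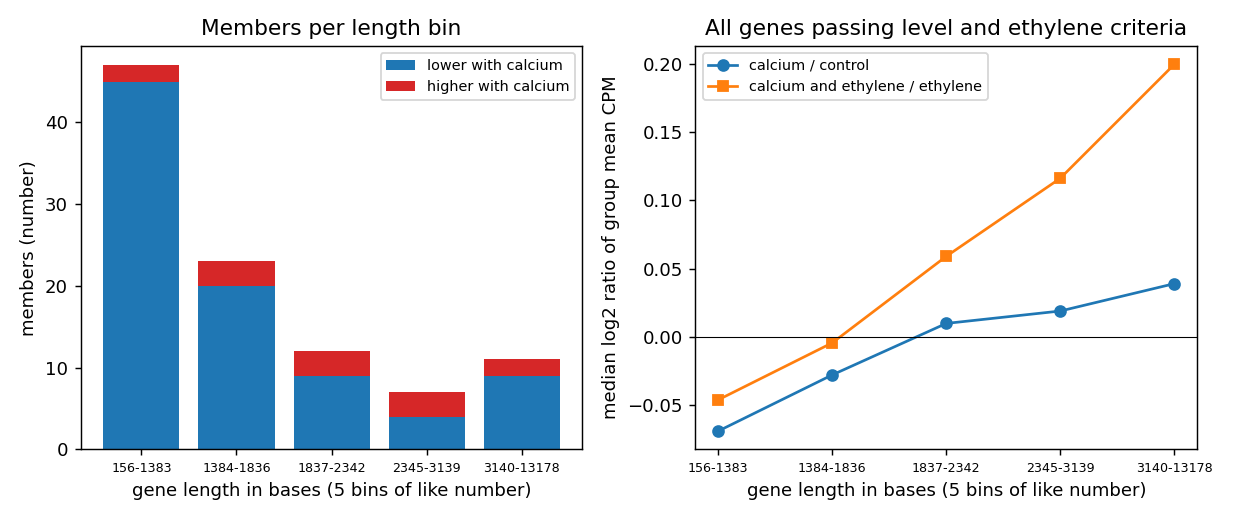
Left, number of members lower (blue) and higher (red) with calcium in each of 5 bins of the 5251 genes by length in bases. Right, median log2 ratio of group mean CPM in each bin for calcium over control (circles) and calcium and ethylene over ethylene (squares). The shortest bin holds 47 of the 100 members, and the medians of both ratios are below 0 there and above 0 in the longest bin.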

How the data were processed

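The authors deposited whole-number counts per gene and library, with a gene length in bases. Per the submitters' processing notes, fastp and featureCounts were used, with aligner, genome build, annotation version and strandedness not given in the sources used here. Reads of overlapping or near-identical genes therefore cannot be told apart. Column names gave each library, and titles gave groups and replicate numbers. None of the 57359 IDs (0 matches) was in a RefSeq table of 39387 rice genes.

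CPM were counts over column totals. Members, comparisons and alternatives were chosen with earlier results of these data known. The named genes are the first 2 lower and 2 higher members in rank whose libraries separated in both pairs of groups. Counts of all 8 libraries were fitted in R 4.3.3 with edgeR 4.0.16 (filterByExpr with a minimum count of 10, TMM, robust quasi-likelihood, 4 groups; common dispersion 0.093), with DESeq2 1.42.0 as an alternative. The threshold was an adjusted p of 0.05. Each SE was the absolute fitted log2 difference divided by the square root of its quasi-likelihood F statistic. P-values cover the spread among these libraries alone, possibly a technical one. The fit was tested on simulated data. Figures used Python 3.11.15 and matplotlib 3.10.9.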

Additional observations from a re-analysis of the deposited data

How the results depend on the processing

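In the averaged calcium comparison DESeq2 called 347 genes and 30 members in place of 0, and edgeR without the low-count filter 277 and 24. This comparison was used in the choice, so member counts support nothing. With 1 library left out it gave 0 to 116 genes and 0 to 7 members, above 0 only without control replicate 2 (22 genes, 2 members) and without ethylene replicate 3 (116 and 7). DESeq2 and the missing filter gave 6 and 15 genes in calcium against control, 180 and 116 in calcium and ethylene against ethylene, and 1 each in the interaction. Leaving out 1 library gave 0 to 345 genes in calcium and ethylene against ethylene (345 without ethylene replicate 3) and 0 to 20 in the interaction (20 without ethylene replicate 3, 1 without calcium replicate 1). The 10526 genes called for ethylene became 6720 (without control replicate 2) to 9587 with 1 library left out. With the replicate number as a block they became 1938, and the block called 0 genes in the calcium comparisons and the interaction. Only number 2 occurred both without and with ethylene, so this block overlaps with the ethylene comparison. Its lower count cannot be read as a weaker effect. With the block, nearly as many terms as libraries were fitted, and ethylene replicate 4, alone in its number, was fitted exactly. Calcium and ethylene against ethylene then rested on the libraries numbered 3, so the block's 0 calls for calcium add little to those of the main fit. The numbers were not treated as pairs, because their meaning is not stated and 1 of the 5 correlations of deviations between same-numbered libraries, 0.0151 between ethylene and calcium and ethylene replicates 3, was under 0.1. The others were 0.104 to 0.178. Deviations of a group's 2 libraries mirror each other, so the 0.178 of control and calcium is 1 value counted for replicates 1 and 2.

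Chosen again, the 100 shared 61 genes with the original at a minimum of 5 CPM, 66 at 20 CPM, 41 with an ethylene ratio of 0.9 to 1.1 and 77 with TMM library sizes. The shared number was 37 (calcium replicate 2 omitted) to 67 when single libraries were omitted. Higher members numbered 20 at 5 CPM, 29 with the narrower ethylene ratio and 7 to 34 on omitting single libraries (7 and 34 without calcium replicates 1 and 2, 32 without control replicate 1, 22 without calcium and ethylene replicate 3) in place of 13. Members with separate libraries numbered 58 to 91 with 1 library left out in place of 56, where a lone library separates more easily. The 4 named genes kept their direction under 12 alternatives each. They were picked for libraries that did not overlap, so omitting 1 could not reverse their CPM ratios. The kept direction largely followed from that choice. DESeq2 called AGIS_Os06g035130 and AGIS_Os06g034840, and edgeR called AGIS_Os07g005860 without ethylene replicate 3. Otherwise the cause of these differences was not tested. Each group had 2 libraries, and 10 CPM stood for at least 191 counts.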
